A study of Homo sapiens with 54 samples.

Results

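Genes of the death receptor system were followed across colorectal cancer cells that were sensitive to 5-FU or had been grown to resistance. They were the soluble decoy receptor TNFRSF6B, the membrane receptors TNFRSF10A, TNFRSF10C and TNFRSF10D, the ligand TNFSF10, and the intracellular components FADD, CASP8 and CFLAR. These 8 members were taken by symbol from the 59368 genes of the deposited tables. They were chosen by the low TNFRSF6B values of resistant HCT-116 against sensitive HCT-116 in these same libraries, so every value of that contrast is given as a description with no test. The data came from DLD-1, HCT-116 and HT-29, established human colorectal cancer lines. Each line was sequenced as sensitive cells and as cells passaged in rising amounts of 5-FU, a drug that inhibits thymidylate synthase and is incorporated into RNA and DNA. The drug was given at 10 µM for 24 h, alone or with X-ray irradiation at a dose set for each line, and control cultures were given uracil at the same concentration. Each of the 18 conditions had 3 libraries (n = 3), which the study describes as biological triplicates. Resistant cells were kept in medium with 5-FU, and the sources used here do not give whether a resistant line is 1 clone or a pool. Effects of resistance and of the long passage cannot be told apart.

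TNFSF10, also called TRAIL, is a membrane ligand of the tumour necrosis factor family that can kill transformed cells. It binds TNFRSF10A and TNFRSF10B, whose cytoplasmic death domains recruit the adaptor FADD and through it the initiator protease CASP8. CFLAR resembles CASP8 but lacks its protease activity, and it can limit CASP8 activation at the receptor. TNFRSF10C is anchored in the membrane without a death domain and TNFRSF10D carries a truncated one, so both bind the ligand without passing on the death signal. TNFRSF6B, or decoy receptor 3, is secreted and binds FASLG, TNFSF14 and TNFSF15 rather than TNFSF10. It has been described as amplified or abundant in tumours of the digestive tract.

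TNFRSF6B lies on the plus strand of chromosome 20, at chr20:63696652-63698684 of GRCh38 in the GENCODE 44 annotation, with 3 exons in its 1 transcript of 1140 bases, ENST00000369996. An overlapping gene, RTEL1-TNFRSF6B at chr20:63659300-63698684, joins exons of the upstream helicase gene RTEL1 to those of TNFRSF6B in read-through transcripts. Of the 1110 stretches of 31 bases in the TNFRSF6B transcript, 31 being kallisto's default word length, 100% also occurred in transcripts of other genes, foremost the read-through gene. The retained-intron read-through ENST00000480273, 5751 bases long, contained the whole TNFRSF6B transcript from its base 4612 on. The read-throughs ENST00000496281 and ENST00000492259 shared 99.6% and 90.3% of the stretches. No read from within TNFRSF6B could therefore be assigned to it by sequence alone, and kallisto divided such reads by estimate. The start of the coding sequence, which all 4 transcripts carry, is shown because reads from it match all of them. Capitals mark the first 60 coding bases, chr20:63696768-63696827, and lower case the 15 bases before them in each transcript.
TNFRSF6B ENST00000369996: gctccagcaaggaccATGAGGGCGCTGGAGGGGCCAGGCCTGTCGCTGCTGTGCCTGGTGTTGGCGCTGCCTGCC
RTEL1-TNFRSF6B ENST00000480273: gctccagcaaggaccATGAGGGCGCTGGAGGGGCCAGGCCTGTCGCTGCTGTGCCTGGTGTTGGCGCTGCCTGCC
RTEL1-TNFRSF6B ENST00000496281: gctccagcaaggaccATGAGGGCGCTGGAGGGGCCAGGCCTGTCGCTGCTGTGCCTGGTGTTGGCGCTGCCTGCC
RTEL1-TNFRSF6B ENST00000492259: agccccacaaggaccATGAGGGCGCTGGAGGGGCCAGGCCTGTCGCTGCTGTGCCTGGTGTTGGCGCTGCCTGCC
The coding bases were the same in all 4, and only ENST00000492259, annotated as a target of nonsense-mediated decay, had other letters upstream of them.

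**Figure D1:**
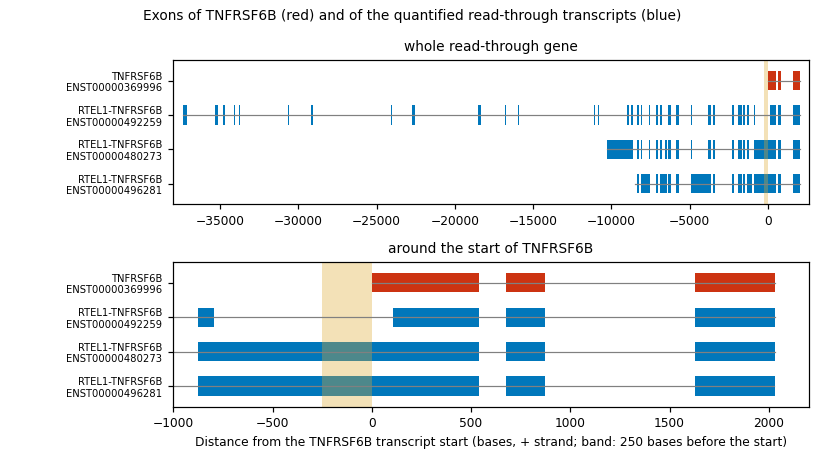
Exons of TNFRSF6B and of the read-through transcripts, drawn to scale by distance from the first base of TNFRSF6B. The band marks the 250 bases before that base, which are exonic in ENST00000480273 and ENST00000496281. All 3 TNFRSF6B exons are covered by exons of read-through transcripts.

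The 250 bases before the annotated start of TNFRSF6B were all exonic in the read-throughs ENST00000480273 and ENST00000496281. This window, from RefSeq on GRCh38.p14 at chr20:63696402-63696651 of the plus strand, is shown because it is itself part of read-through RNA. Capitals mark the 1 match to the GC box GGGCGG or its reverse complement CCGCCC.
TNFRSF6B upstream window: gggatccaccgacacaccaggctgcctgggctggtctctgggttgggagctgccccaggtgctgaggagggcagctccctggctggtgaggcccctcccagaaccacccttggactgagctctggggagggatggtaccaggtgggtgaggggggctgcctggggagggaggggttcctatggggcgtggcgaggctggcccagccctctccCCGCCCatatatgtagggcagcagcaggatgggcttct
The GC box was present in 42.6% of the 35116 promoter windows of the same length. Read on both strands, the exact motif TATATA had no match here and was present in 3.73% of all windows, and the motif CCAAT likewise (32.0%). Near matches, such as tatatg just after the GC box, were not counted. The AP-1 motif TGACTCA (4.203%) and a 10-base NF-kB consensus (0.179%) had none either.

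The 54 libraries held 38957142 to 218518344 estimated counts (median 51373543). Of 64 genes that marked sensitive HCT-116 against the other lines, the libraries labelled resistant HT-29 had 62 at a mean of 1 TPM or more with uracil, as resistant HCT-116 did, and of 12 such HT-29 markers they had 0. Comparisons that use these libraries therefore go against their line label, and they are called libraries labelled resistant HT-29 throughout. The colorectal epithelial list had 6 or 7 of its 7 markers at a mean of 1 TPM or more in every line and state. The leukocyte list had 0 of 4 at that mean level in every line and state other than sensitive HT-29, with a summed level of at most 6.57 TPM in a library, and in sensitive HT-29 LYZ alone brought the summed level to between 1421.8 and 1685.5 TPM, and the part of LYZ in any result was not tested. The stromal list had 1 of 3 markers and the endothelial list 0 or 1 of 2 at a mean of 1 TPM or more, with summed levels of at most 31.2 and 5.43 TPM. In bulk RNA, fewer cells of a kind and less RNA per cell cannot be told apart. Levels below are TPM, which is per length and so comparable between genes, as mean ± SD over 3 libraries. Changes are log2 fold changes ± SE from edgeR's quasi-likelihood test on the counts, with p-values adjusted by Benjamini-Hochberg over all genes tested. A gene was called where its adjusted p did not exceed 0.01 and its change was 1 or more on the log2 scale, up or down.

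TNFRSF6B was measured in sensitive HCT-116 and was at or near 0 in the 5 other line and state groups. In sensitive HCT-116 it stood at 26.9, 21.3 and 22.7 TPM with uracil, from 1241, 984 and 1030 estimated counts. With 5-FU the libraries held 45.3, 43.5 and 47.3 TPM, and with 5-FU and irradiation 59.9, 45.8 and 54.1 TPM. The treated libraries lay above all 3 uracil libraries, and the irradiated ones overlapped those with 5-FU alone. In resistant HCT-116 the gene was listed at 0 in 7 of 9 libraries, and the others held 0.195 TPM (9 counts, uracil replicate 3) and 0.346 TPM (16 counts, 5-FU with irradiation, replicate 1). All 36 libraries of DLD-1 and HT-29, whatever their label, listed it at 0.

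The contrast that selected the members therefore read 23.6 ± 2.92 TPM in sensitive against 0.0650 ± 0.113 TPM in resistant HCT-116 with uracil. With 5-FU, where all 3 resistant libraries were at 0, sensitive cells were at least 722-fold higher, computed against a floor of 3 counts per library. That bound covers counting error and not the division of shared reads. With 5-FU and irradiation the levels were 53.3 ± 7.11 and 0.115 ± 0.200 TPM. The fitted log2 differences with uracil and with 5-FU and irradiation, −8.53 ± 0.38 and −8.94 ± 0.32, rested on the single resistant library that was not at 0. They became −13.26 and −14.27 without that replicate.

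The read-through gene moved the other way in the same contrast. RTEL1-TNFRSF6B held 5.93 ± 0.842 TPM in sensitive and 9.40 ± 0.721 TPM in resistant HCT-116 with uracil, and the groups did not overlap. The summed TPM of both genes was 29.5 ± 2.28 TPM in sensitive and 9.47 ± 0.618 TPM in resistant cells, a log2 difference of −1.64. With 5-FU the sums were 52.2 ± 2.03 and 9.17 ± 0.407 TPM (−2.51), and with 5-FU and irradiation 58.98 ± 6.56 and 9.25 ± 0.226 TPM (−2.67). TPM is per length, so this sum still depends on how shared reads were divided between a short and a long RNA. Summed counts do not depend on the division between these 2 genes, and were 2705 ± 173 in sensitive and 2635 ± 342 in resistant cells with uracil, before scaling for library size. Fitted after TMM scaling, their log2 difference was −0.12 with uracil and −0.71 under each of the other treatments. RTEL1 was not part of the sum, although 60.4% of the 31-base stretches of the read-through gene also occurred in other genes, RTEL1 among them, so the sum still depends on how those reads were divided. How much of the difference in TNFRSF6B is the division of reads was not tested.

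**Figure D2:**
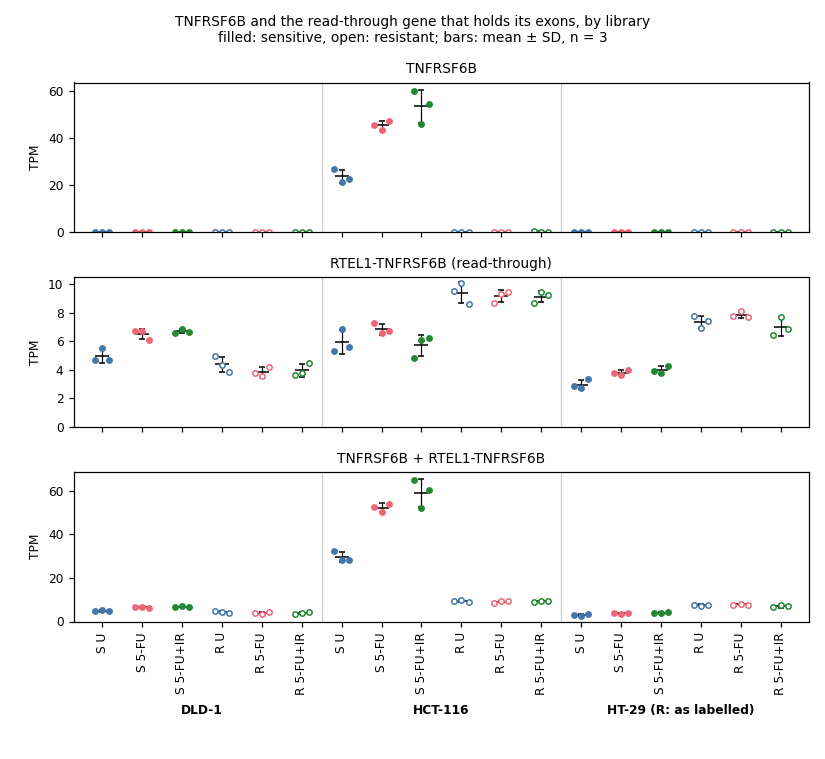
TPM of TNFRSF6B, of the read-through gene RTEL1-TNFRSF6B and of their sum in each of the 54 libraries (filled points sensitive, open points resistant, bars mean ± SD of 3). TNFRSF6B is above 1 TPM only in the 9 sensitive HCT-116 libraries, whereas the read-through gene lies between 2.70 and 10.1 TPM throughout.

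Genes around the locus were measured in the same libraries. With uracil, RTEL1, a helicase of telomere maintenance, was at 24.4 ± 2.08 TPM in sensitive and 40.1 ± 4.98 TPM in resistant HCT-116. ARFRP1, a small GTPase whose end overlaps that of TNFRSF6B on the minus strand, was at 30.5 ± 0.733 and 42.6 ± 1.76 TPM. The stathmin family gene STMN3 was at 87.1 ± 1.66 and 86.9 ± 3.20 TPM. None of the 8 locus genes passed a log2 difference of 1 between resistant and sensitive HCT-116 with uracil, beside 15.7% of all genes, and their median difference was 0.30 beside 0.0046 over all genes. STMN3 followed the line, with 4.92 ± 0.227 TPM in sensitive DLD-1, 2.23 ± 0.118 TPM in sensitive HT-29 and 98.3 ± 2.02 TPM in the libraries labelled resistant HT-29.

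Over the 18 condition means, the genes whose log2(TPM + 1) was closest to that of TNFRSF6B by Pearson's r, among 21995 ranked, were AP001924.1 (0.997), HLA-DRA (0.989), CAPN6 (0.989), HLA-DRB1 (0.988) and CDC27P3 (0.988). HLA-DRA and HLA-DRB1 encode chains of a class II antigen-presenting molecule, and CAPN6 a calpain without protease activity. These genes were low: with uracil in sensitive HCT-116 HLA-DRA stood at 5.10 TPM, CAPN6 at 3.24 TPM, HLA-DRB1 at 2.67 TPM, AP001924.1 at 1.15 TPM and CDC27P3 at 0.543 TPM. Such a correlation is high for any gene present only in sensitive HCT-116, since 15 of the 18 points lie near 0. With a pseudocount of 0.1 the 5 closest genes shared 2 with this list, and with no filter on mean TPM 1.

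Of the membrane receptors, the decoy TNFRSF10D rose with 5-FU in sensitive HCT-116 and HT-29. In sensitive HCT-116 it held 41.0, 36.5 and 37.4 TPM with uracil and 82.2, 83.7 and 81.2 TPM with 5-FU, and it rose by 1.10 ± 0.05 (edgeR adjusted p = 1e-13). In sensitive HT-29 it held 6.35, 6.27 and 5.79 TPM with uracil and 22.2, 22.4 and 22.3 TPM with 5-FU, and it rose by 1.61 ± 0.05 (edgeR adjusted p = 6.05e-19). In both lines the treated libraries lay well above the controls, with a spread of a few TPM at most. In sensitive DLD-1 the levels were 17.4, 17.6 and 17.5 TPM with uracil and 27.0, 26.0 and 26.2 TPM with 5-FU, without overlap. That log2 difference of 0.49 ± 0.05 (edgeR adjusted p = 6.23e-08) did not reach the fold threshold.

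TNFRSF10C, the decoy anchored without a cytoplasmic part, was far lower. In sensitive HCT-116 it held 1.55, 1.07 and 1.06 TPM with uracil, from 66 to 90 counts, and 2.72, 3.08 and 2.05 TPM with 5-FU. It rose by 1.10 ± 0.17 (edgeR adjusted p = 7.21e-06), but by 0.95 without the libraries of replicate 2, under the fold threshold. In sensitive HT-29 it went from 0.361, 0.365 and 0.658 TPM to 0.983, 0.767 and 0.849 TPM, a difference of 0.75 ± 0.24 (edgeR adjusted p = 0.0094). Without the libraries of replicate 3, which held the highest control, it passed at 1.05. Across the alternatives this difference ranged from 0.50 to 1.05, with a largest adjusted p (edgeR or DESeq2) of 0.153. In sensitive DLD-1 the difference was 0.19 ± 0.14 (edgeR adjusted p = 0.293). Of the 31-base stretches of TNFRSF10C, 31.3% also occurred in other genes, TNFRSF10D among them, so part of this low level is set by the division of reads.

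**Figure D3:**
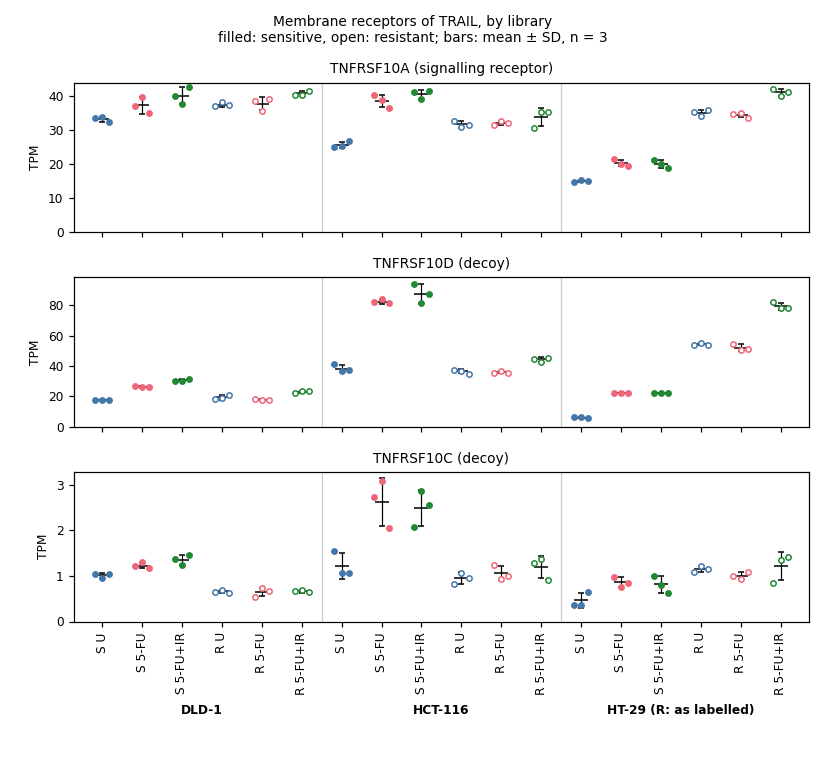
TPM of the signalling receptor TNFRSF10A and the decoys TNFRSF10D and TNFRSF10C in each library, by line, state (S sensitive, R resistant as labelled) and treatment (U uracil, IR irradiation), with bars at mean ± SD of 3. TNFRSF10D rises from 38.3 to 82.4 TPM in sensitive HCT-116 and from 6.14 to 22.3 TPM in sensitive HT-29 with 5-FU, while the resistant libraries with uracil and 5-FU stay level.

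The signalling receptor TNFRSF10A did not reach the fold threshold in any 5-FU comparison. It was 25.8 ± 0.875 TPM with uracil and 38.6 ± 1.85 TPM with 5-FU in sensitive HCT-116 (0.60 ± 0.04, edgeR adjusted p = 5.27e-11). In sensitive HT-29 the levels were 15.1 ± 0.214 and 20.4 ± 1.00 TPM (0.20 ± 0.04, edgeR adjusted p = 0.000322), and in sensitive DLD-1 33.2 ± 0.683 and 37.3 ± 2.41 TPM (0.12 ± 0.05, edgeR adjusted p = 0.0576). The other signalling receptor TNFRSF10B, which was not among the members, had 70.9 ± 1.65 TPM with uracil and 108 ± 3.63 TPM with 5-FU in sensitive HCT-116. The summed level of both decoys over that of both signalling receptors was accordingly 0.409 ± 0.0332 and 0.581 ± 0.0223 in sensitive HCT-116 with uracil and 5-FU. The same ratio was 0.128 ± 0.0036 and 0.354 ± 0.0062 in sensitive HT-29, and 0.190 ± 0.0027 and 0.275 ± 0.0112 in sensitive DLD-1. In each sensitive line the 3 treated libraries had higher ratios than the 3 controls. In resistant DLD-1 the ratio was 0.182 ± 0.0180 and 0.178 ± 0.0060, in resistant HCT-116 0.356 ± 0.0179 and 0.326 ± 0.0073, and in those labelled resistant HT-29 0.472 ± 0.0124 and 0.441 ± 0.0208. Treated and control libraries overlapped in resistant DLD-1. Treated ratios lay narrowly below the controls in resistant HCT-116 (at most 0.334 against at least 0.336) and in those labelled resistant HT-29 (0.459 against 0.463).

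Counted over the members, 5-FU against uracil called 2 of 8 in sensitive HCT-116 (TNFRSF10C and TNFRSF10D, both higher), where 8.14% of all genes tested were called. It called 1 of 7 in sensitive HT-29 (TNFRSF10D), where 12.2% of all genes were called, and TNFRSF6B was not testable. In sensitive DLD-1 edgeR called 0 of 7 against 4.02% of all genes. At an unadjusted p under 0.05 edgeR had 4 there, and DESeq2 called 0. The median change of the members tested was 0.67 in sensitive HCT-116, 0.39 in sensitive HT-29 and 0.12 in sensitive DLD-1, beside 0.0252, 0.0345 and 0.0146 over all genes. Scaling by library size in place of TMM moved the median of all genes in these comparisons by 0.0854, 0.157 and 0.101, and no call listed here turned in direction with it.

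TNFRSF6B itself, in sensitive HCT-116, differed by 0.93 ± 0.15 between 5-FU and uracil (edgeR adjusted p = 2.95e-05), under the fold threshold. It passed at 1.05 without the libraries of replicate 1, and DESeq2 gave it an adjusted p of 0.671. With 5-FU and irradiation it rose by 1.13 ± 0.15 (edgeR adjusted p = 2.8e-06), but DESeq2 gave an adjusted p of 0.592 for a change of 1.14. With the counts of the read-through gene added, the change was 0.53 (edgeR adjusted p = 1.27e-08). The sensitive uracil libraries in these tests also served to choose the members, and TNFRSF6B passed the filter through sensitive HCT-116 alone. Its call with 5-FU and irradiation therefore carries no weight. The comparison of 5-FU and irradiation with uracil called 3 of 8 members in sensitive HCT-116 against 8.38% of all genes, the other 2 being TNFRSF10C (1.04 ± 0.17) and TNFRSF10D (1.17 ± 0.05). Without the libraries of replicate 2 or of replicate 3 the change of TNFRSF10C was 0.93 or 0.92, under the threshold. In sensitive HT-29 it called 1 of 7, TNFRSF10D (1.59 ± 0.05), against 12.2% of all genes. TNFRSF10C, at 0.65 in the main fit, passed as well, at 1.07, without the libraries of replicate 3. Its change ran from 0.34 to 1.07 over the alternatives, and the largest adjusted p (edgeR or DESeq2) was 0.379. In sensitive DLD-1 edgeR called 0 of 7 against 4.61%, with 4 at an unadjusted p under 0.05 and 0 called by DESeq2, and TNFRSF10D differed by 0.66 ± 0.05 (edgeR adjusted p = 8.04e-10).

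In resistant cells 5-FU called no member by edgeR. The counts were 0 of 7 in resistant DLD-1 (0.0138% of all genes called, 0 members at an unadjusted p under 0.05), 0 of 8 in resistant HCT-116 (0% of all genes, 1 member, CASP8) and 0 of 7 among those labelled resistant HT-29 (0.00421% of all genes, 1 member, TNFRSF10D). DESeq2 called 0 in each. The 8 of resistant HCT-116 include TNFRSF6B, which was at 0 in 7 of its 9 libraries. TNFRSF10D held 18.1, 19.1 and 21.1 TPM with uracil and 18.4, 17.6 and 17.9 TPM with 5-FU in resistant DLD-1. It held 37.7, 36.9 and 34.9 TPM and then 35.4, 36.5 and 35.4 TPM in resistant HCT-116. In both lines the treated and control libraries overlapped. The libraries labelled resistant HT-29 held 54.03, 55.2 and 54.1 TPM and then 54.4, 50.4 and 51.3 TPM, which overlapped as well.

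The difference between states was tested as an interaction, called at the adjusted p alone. The 5-FU response of TNFRSF10D was lower in resistant than in sensitive cells by −0.57 ± 0.07 in DLD-1 (edgeR adjusted p = 2.8e-06), by −1.16 ± 0.07 in HCT-116 (edgeR adjusted p = 3.87e-11) and by −1.70 ± 0.07 in the HT-29 comparison as labelled (edgeR adjusted p = 1.9e-16). CFLAR, the CASP8-like inhibitor, differed in the same direction, by −0.32 ± 0.07, −0.82 ± 0.10 and −0.37 ± 0.06 (edgeR adjusted p = 0.000946, 5.1e-07 and 8.46e-06). In DLD-1 the CFLAR value became −0.23 (edgeR adjusted p = 0.0411) without the libraries of replicate 1. TNFRSF10A differed by −0.65 ± 0.06 in HCT-116 (edgeR adjusted p = 9.66e-09). In HT-29 its −0.23 ± 0.06 (edgeR adjusted p = 0.0032) was lost without the low-count filter (edgeR adjusted p = 0.0219) and without the libraries of replicate 1, 2 or 3 (0.0118, 0.0634 and 0.0272). TNFRSF10C and CASP8 differed in HCT-116, by −0.99 ± 0.25 (edgeR adjusted p = 0.00284) and −0.37 ± 0.07 (edgeR adjusted p = 0.000235). The TNFRSF10C value was lost without the libraries of replicate 2 (−0.67, edgeR adjusted p = 0.145) or replicate 3 (edgeR adjusted p = 0.0178), and that of CASP8 without those of replicate 1 (edgeR adjusted p = 0.0136). TNFRSF6B counts among the 8 members in HCT-116, but no test of its interaction is given, since its values in these libraries chose the members. In all, the response differed for 2 of 7 DLD-1 members, beside 22.8% of all genes, for 5 of 8 HCT-116 members, beside 29.7%, and for 3 of 7 members of the HT-29 comparison, beside 35.4%, each lower in resistant cells. Of all called genes those lower in resistant cells numbered 1990 of 4978, 2618 of 6814 and 3822 of 8407.

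**Figure D4:**
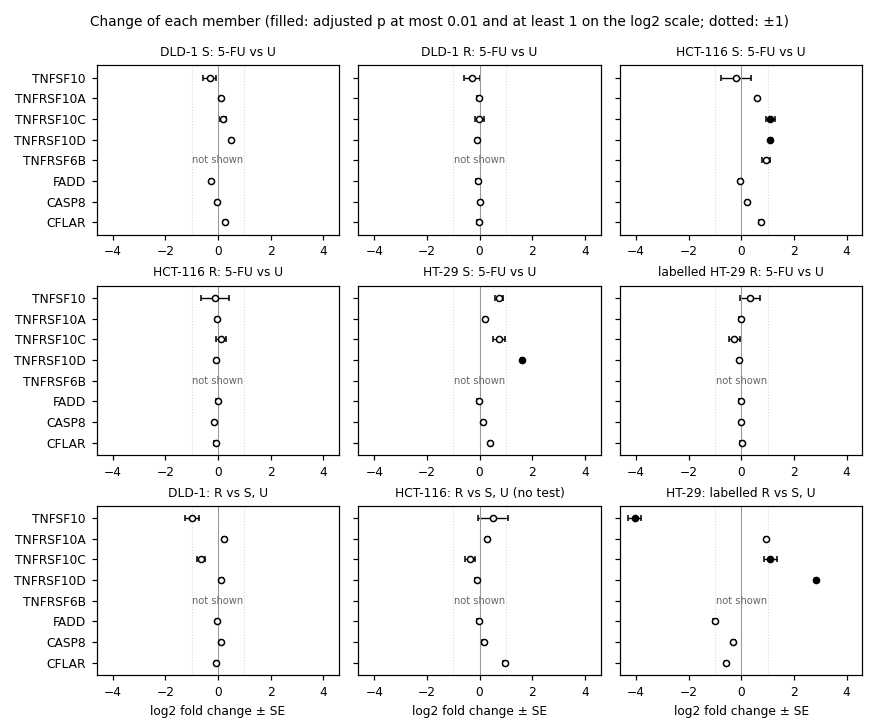
Log2 fold change ± SE of each member with 5-FU against uracil in sensitive (S) and resistant (R) cells, and of resistant against sensitive cells with uracil. Filled points passed the adjusted p and fold thresholds and the HCT-116 panel of resistant against sensitive cells has no test. TNFRSF6B is drawn only for sensitive HCT-116, as an open point, and the filled points in the 5-FU panels are TNFRSF10C and TNFRSF10D in sensitive HCT-116 and TNFRSF10D in sensitive HT-29.

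Irradiation after 5-FU, set against 5-FU alone, called no member in any group by edgeR or DESeq2. Among sensitive cells edgeR had 0 of 7 for DLD-1 (0% of all genes), 0 of 8 for HCT-116 (0%) and 0 of 7 for HT-29 (0.00842%), with 3, 1 and 0 members at an unadjusted p under 0.05. Among resistant cells it had 0 of 7 for DLD-1 (0.142%), 0 of 8 for HCT-116 (0.0261%) and 0 of 7 among those labelled resistant HT-29 (0.434%), with 1, 4 and 4 at an unadjusted p under 0.05. The 4 of resistant HCT-116 include TNFRSF6B, which rested on 1 library above 0. TNFRSF10D was the member with the smallest adjusted p in each resistant group, at 0.35 ± 0.05 in DLD-1 (edgeR adjusted p = 0.000202), 0.31 ± 0.05 in HCT-116 (edgeR adjusted p = 0.00108) and 0.58 ± 0.04 among those labelled resistant HT-29 (edgeR adjusted p = 5.92e-10). In the last of these the irradiated libraries held 81.9, 77.8 and 78.0 TPM, all above the 5-FU libraries. Sensitive cells gave 0.17 ± 0.05, 0.08 ± 0.05 and −0.02 ± 0.05. The difference between states passed for 1 of 7 members in HT-29, TNFRSF10D at 0.60 ± 0.06 (edgeR adjusted p = 6.21e-07), against 5.4% of all genes. It passed for 0 of 7 in DLD-1 (0.0413%) and 0 of 8 in HCT-116 (0.165%), with 1 member at an unadjusted p under 0.05 in each, TNFRSF10D, and 0 by DESeq2.

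TNFSF10, the ligand, was scarce in all lines. With uracil, sensitive HT-29 held 3.69, 2.22 and 1.89 TPM (72 to 152 counts), sensitive DLD-1 1.23, 1.41 and 1.82 TPM, and sensitive HCT-116 0.0791, 0.136 and 0.170 TPM (3 to 9 counts). These 3 groups did not overlap. Resistant DLD-1 lay below its sensitive partner at 0.756, 0.747 and 0.560 TPM, a difference of −0.99 ± 0.26 (edgeR adjusted p = 0.00468) that stopped just short of the fold threshold. It passed at −1.01 with no low-count filter and with the replicate block, and at −1.08 with the deepest library, sensitive DLD-1 with uracil replicate 2, thinned. Over all alternatives the difference ran from −1.23 to −0.85, and the largest adjusted p (edgeR or DESeq2) was 0.0654. With 5-FU, sensitive HT-29 held 5.47, 5.28 and 4.24 TPM, 0.74 ± 0.14 above uracil (edgeR adjusted p = 9.01e-05). At 3 to 12 counts per library, changes in HCT-116 were not detectable at this depth, with a SE of 0.58 for 5-FU against uracil in sensitive cells.

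FADD, the adaptor, was called in no comparison of treatments. It held 48.8 ± 3.25 TPM in sensitive HT-29, 43.4 ± 1.39 TPM in sensitive DLD-1 and 28.02 ± 1.75 TPM in sensitive HCT-116 with uracil. With 5-FU its change was −0.27 ± 0.04 in sensitive DLD-1 (edgeR adjusted p = 4.14e-05), where it was −0.33 ± 0.04 with irradiation (edgeR adjusted p = 2.85e-06), and −0.04 ± 0.06 in sensitive HCT-116. With library-size scaling the latter turned to 0.0425, and its −0.03 ± 0.05 in sensitive HT-29 to 0.13, and there the TPM with 5-FU (55.6 to 57.6) lay above that with uracil (45.2 to 51.5). Of its 31-base stretches 56.8% also occurred in an overlapping antisense gene. The library kit kept strand, but the sources used here do not state whether quantification used it, so part of the FADD level may belong to that gene.

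CASP8, the initiator protease, was highest in DLD-1, at 49.1, 45.1 and 47.2 TPM in sensitive cells with uracil, and lowest in sensitive HCT-116, at 27.0, 24.6 and 28.3 TPM. With uracil, sensitive HT-29 and resistant HCT-116 were the only neighbours in the order of the 6 groups that overlapped. With 5-FU its change on the count scale was at most 0.22 ± 0.05, in sensitive HCT-116 (edgeR adjusted p = 0.000759), and in sensitive DLD-1 the value of −0.03 ± 0.05 turned to 0.07 with library-size scaling. In TPM the rise was larger in sensitive HT-29, from 32.5 ± 1.15 with uracil to 44.8 ± 1.32 with 5-FU, without overlap. Sensitive HCT-116 went from 26.6 ± 1.83 to 31.6 ± 1.22 TPM.

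CFLAR, which lies next to CASP10 and CASP8 on chromosome 2, was the intracellular member with the widest range between lines. Sensitive DLD-1 held 43.8, 46.7 and 43.8 TPM with uracil, sensitive HT-29 33.1, 35.9 and 30.7 TPM, and sensitive HCT-116 11.99, 14.4 and 12.3 TPM. With 5-FU the groups moved apart from their controls without overlap, to 62.6, 62.1 and 60.4 TPM in DLD-1, 51.01, 50.6 and 50.1 TPM in HT-29 and 20.4, 18.4 and 19.7 TPM in HCT-116. On the count scale these differences were 0.28 ± 0.05, 0.39 ± 0.04 and 0.75 ± 0.07 (edgeR adjusted p = 5.4e-05, 6.03e-09 and 7.24e-09), each under the fold threshold. Resistant HCT-116 held 20.2, 22.6 and 23.3 TPM with uracil, all above its sensitive partner, a log2 difference of 0.95 ± 0.07 that is given without a test. CFLAR over CASP8 in TPM was 0.952 ± 0.0743 in sensitive DLD-1, 1.02 ± 0.0997 in sensitive HT-29 and 0.488 ± 0.0828 in sensitive HCT-116 with uracil, and 0.728 ± 0.0519 in resistant HCT-116.

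CFLAR is made as long and short proteins that both bind at the receptor. In the deposited transcript tables, transcripts coding for 384 to 480 codons held 37.1% ± 0.746 of the CFLAR TPM in sensitive DLD-1, 34.6% ± 1.55 in sensitive HCT-116 and 21.03% ± 5.76 in sensitive HT-29 with uracil. Those coding for 117 to 221 codons held 23.5% ± 2.52, 26.9% ± 3.77 and 40.9% ± 2.43. The short share of sensitive HT-29 lay above all libraries of the other 2 sensitive lines, and ENST00000341222, with 221 codons, held 35.5% of the CFLAR TPM there. With 5-FU the short share was 16.3% ± 1.59 in sensitive HCT-116 and 30.4% ± 4.12 in sensitive HT-29, each below the uracil libraries of its line. In sensitive DLD-1 it was 25.1% ± 2.01, overlapping the uracil libraries. Shares within a gene rest on kallisto's estimates, and no test was run on them. For CASP8, transcripts of 464 to 538 codons held 60.3% to 62.9% in the 3 sensitive lines with uracil.

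**Figure D5:**
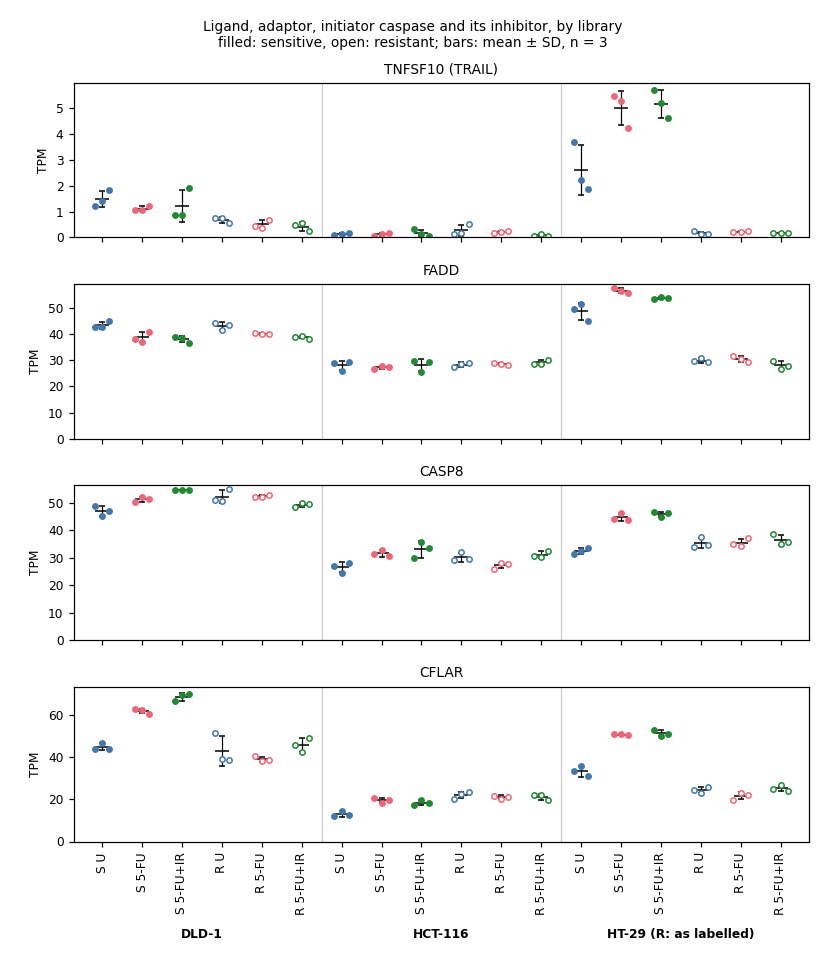
TPM of the ligand TNFSF10, the adaptor FADD, the initiator caspase CASP8 and its inhibitor CFLAR in each library, by line, state and treatment, with bars at mean ± SD of 3. TNFSF10 is near 0 in HCT-116 and among those labelled resistant HT-29, and CFLAR is higher with 5-FU in the sensitive groups of all 3 lines.

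Between states with uracil, edgeR called 0 of 7 members in DLD-1 against 5.7% of all genes, with 5 at an unadjusted p under 0.05 and 0 called by DESeq2. TNFRSF10C differed there by −0.64 ± 0.15 (edgeR adjusted p = 0.0022) and TNFRSF10A by 0.24 ± 0.05 (edgeR adjusted p = 0.000745). In HCT-116, where the rule was applied, 1 of 8 members lay past the fold with uracil (TNFRSF6B, beside 15.7% of all genes) and 3 of 8 with 5-FU (beside 16.8%) and with 5-FU and irradiation (beside 15.4%). The further members were TNFRSF10C (−1.36 and −1.12) and TNFRSF10D (−1.27 and −1.03) under the respective treatments, and with irradiation they were −0.97 without the libraries of replicate 3 and −0.96 without those of replicate 1. TNFSF10, at −0.84 ± 0.60 with irradiation from 3 to 11 counts per library, was −0.0351, −1.40 and −1.07 without replicates 1, 2 and 3. TNFRSF10D held 82.4 ± 1.30 TPM in sensitive against 35.8 ± 0.654 TPM in resistant HCT-116 with 5-FU, and 38.3 ± 2.39 against 36.5 ± 1.39 TPM with uracil, where the libraries overlapped.

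The libraries labelled resistant HT-29 differed from sensitive HT-29 in 3 of 7 members, against 39.4% of all genes. TNFSF10 fell by 4.05 ± 0.24 on the log2 scale (edgeR adjusted p = 2.65e-14), to 0.236, 0.136 and 0.140 TPM. TNFRSF10D rose by 2.84 ± 0.05 (edgeR adjusted p = 1.88e-25), and TNFRSF10C rose by 1.11 ± 0.24 (edgeR adjusted p = 0.000189) but by 0.92 without the libraries of replicate 2 (edgeR adjusted p = 0.0139). FADD stood just short of the threshold at −0.9997 ± 0.06 and passed at −1.05 without those of replicate 3. TNFRSF10A, at 0.93 ± 0.04, passed at 1.19 with library-size scaling, which moved the median of all genes in this comparison by 0.264. CASP8, at −0.30 ± 0.05, had the opposite sign in mean TPM (35.3 against 32.5). Against HCT-116 the same libraries were closer. From resistant HCT-116 edgeR called 0 of 8 members against 3.36% of all genes, with 3 at an unadjusted p under 0.05 (TNFRSF10D at 0.47 ± 0.05, CFLAR and CASP8) and 0 called by DESeq2. From sensitive HCT-116 it called 1 of 8, TNFRSF6B, against 6.87%, a gene that passed the filter only through sensitive HCT-116 and had a DESeq2 adjusted p of 0.286. TNFRSF6B is also among the 8 compared with resistant HCT-116, where it was at or near 0 on both sides.

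Between the sensitive lines with uracil, HCT-116 differed from DLD-1 in 5 of 8 members against 30.7% of all genes. TNFSF10 was lower in HCT-116 by −3.28 ± 0.33, CFLAR by −1.67 ± 0.06 and CASP8 by −1.01 ± 0.05, and TNFRSF10D was higher by 1.10 ± 0.05 (edgeR adjusted p = 1.08e-12, 2.29e-30, 6.1e-24 and 5.35e-24). CASP8 stood at the threshold and was −0.98 without the libraries of replicate 1 or of replicate 3. TNFRSF6B, the fifth, passed the filter through HCT-116 alone, so its call carries no weight, and DESeq2 gave an adjusted p of 0.202. HT-29 differed from DLD-1 in 2 of 8 members, TNFRSF10D (−1.37 ± 0.06) and TNFRSF10C (−1.06 ± 0.20), against 30.9% of all genes, and TNFRSF10C was −0.91 or −0.98 without the libraries of replicate 1 or 2. The 8 include TNFRSF6B, which was at 0 in every library of both lines. TNFSF10, at 0.99 ± 0.22, passed at 1.18 without those of replicate 3. HT-29 differed from HCT-116 in 5 of 8 against 37.5%, with TNFSF10 (4.27 ± 0.31) and CFLAR (1.30 ± 0.06) higher and TNFRSF10D (−2.47 ± 0.06), TNFRSF10C (−1.21 ± 0.20) and TNFRSF6B lower. TNFRSF6B again passed the filter through HCT-116 alone and carries no weight, and DESeq2 called 4 without it (adjusted p = 0.229). Without the libraries of replicate 1 TNFRSF10C was −0.93, and without those of replicate 3 FADD, at 0.95 ± 0.06, passed at 1.02. Each of these comparisons shares a group with another, so their values are not independent.

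Of the 32 other genes listed for death receptor signalling, 26 were tested in HCT-116, 31 in HT-29 and 29 in DLD-1. With 5-FU, 3 of 26 rose in sensitive HCT-116, beside 8.14% of all genes called. They were TNFSF15, a ligand of TNFRSF6B (1.93 ± 0.54, from 0.0198 to 0.0698 TPM), the death receptor FAS (1.02 ± 0.07, from 14.7 ± 0.433 to 28.8 ± 1.70 TPM) and the death receptor TNFRSF25 (1.01 ± 0.08, from 17.2 ± 2.29 to 33.4 ± 0.874 TPM). In sensitive HT-29, 5 of 31 rose, beside 12.2% of all genes called. They were BIRC3, an inhibitor of apoptosis (2.40 ± 0.07), the NF-kB feedback gene TNFAIP3 (2.28 ± 0.10), the ligands FASLG (2.02 ± 0.56) and TNFSF15 (1.81 ± 0.05), and TNFRSF25 (1.254 ± 0.08). FASLG stayed under 1 TPM, at 0.0481 and 0.241 TPM. In sensitive DLD-1, 0 of 29 were called, beside 4.02% of all genes. The median change of the list was 0.0212, 0.297 and −0.113 in HCT-116, HT-29 and DLD-1.

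In the interaction with 5-FU in HCT-116, 10 of the 26 listed genes differed, beside 29.7% of all genes. FAS (−1.17 ± 0.10), TNFRSF25 (−0.95 ± 0.12), LTBR (−0.53 ± 0.07), TNFRSF10B (−0.46 ± 0.05) and MLKL (−0.44 ± 0.12) were lower in resistant cells, the first 4 of them receptors. Among those higher in resistant cells were TRAF2, an adaptor of tumour necrosis factor receptors (0.56 ± 0.09), APAF1, the scaffold of the apoptosome (0.46 ± 0.12), and the caspase CASP6 (0.46 ± 0.08). The same interaction passed for 10 of 29 listed genes in DLD-1, beside 22.8% of all genes. In the HT-29 comparison as labelled it passed for 15 of 31, beside 35.4%. In resistant against sensitive HCT-116 with uracil, 1 of the 26 listed genes lay past the fold, beside 15.7% of all genes. It was CASP10, the neighbour and relative of CASP8, at 2.58 ± 0.308 TPM in sensitive and 0.393 ± 0.223 TPM in resistant cells. The libraries labelled resistant HT-29 held 0.424 ± 0.115 TPM of CASP10.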

How the data were processed

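RNA-seq of 54 libraries (3 cell lines, 18 conditions, 3 replicates) was used. The authors deposited, per gene and per transcript, kallisto estimated counts and TPM, a level normalized for transcript length and library size. The submitters' processing notes name FastQC 0.11.8, Trimmomatic 0.36, kallisto 0.44.0 and GRCh38.p13, and whether kallisto used strand is not given in the sources used here. Estimated counts, of which 60.9% were whole, were rounded and tested with edgeR 4.0.16 in R 4.3.3 (TMM, filterByExpr, quasi-likelihood, Benjamini-Hochberg over all genes tested), in 1 fit per line over its 18 libraries in 6 groups, or over all 54 libraries between lines. Calls needed an adjusted p not above 0.01 and a change of 1 or more on the log2 scale, and interactions the adjusted p alone. The scripts were tested on simulated data.

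The members and the pathway, locus and marker lists were chosen with earlier results of these data known. Named were all members, the pathway genes called in the comparison described (up to 10, apart from some not reported here), genes next to TNFRSF6B, and the 5 genes most like it among those reaching 1 TPM in a condition. Alternatives were library-size scaling, no filter, a replicate block, leaving out each replicate number, only the groups compared, a thinned deepest library, DESeq2 1.42.0, a log2 fold of 2, and TNFRSF6B with read-through counts added. The summed TPM, resistant against sensitive HCT-116 under treatment, and the interaction for added irradiation were chosen after seeing the data. The lowest chi-square per degree of freedom between replicate pairs was 2.31, so none was counted as a repeat. Total counts limit precision, and floors and bounds cover counting error only. Sequences came from GENCODE 44 transcripts and RefSeq (GRCh38.p14). Receptor sequences of chromosome 8 and protein sequences were not used here.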

Additional observations from a re-analysis of the deposited data

Results flagged for a closer look

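The 5-FU response of these members differed between resistant and sensitive cells by the interaction test, as given in the report. In DLD-1 the log2 differences were −0.57 for TNFRSF10D and −0.32 for CFLAR. In HCT-116 they were −0.65 for TNFRSF10A, −0.99 for TNFRSF10C, −1.16 for TNFRSF10D, −0.37 for CASP8 and −0.82 for CFLAR. In the HT-29 comparison as labelled they were −0.23 for TNFRSF10A, −1.70 for TNFRSF10D and −0.37 for CFLAR. The response of TNFRSF10D to irradiation added to 5-FU differed there by 0.60. The HT-29 differences set libraries with HCT-116 markers against HT-29, so state and line cannot be told apart in them.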

How the results depend on the processing

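No called value turned in direction under the alternatives run. Uncalled values that did were small differences of FADD and CASP8, with library-size scaling, and TNFRSF6B for irradiation added to 5-FU in resistant HCT-116, at −0.0099 with read-through counts added in place of 5.40, and its interaction. Of the counts over members 265 stayed within 1.5 times and 28 moved. Of the values of single members and the rankings of genes like TNFRSF6B, 427 were counted as the same, 24 passed newly, 26 were lost and 17 moved. The same meant an unchanged call for tested values, and a shift within 1 SE of the main fit for untested ones. Those that moved were untested values beyond that SE and the 2 alternative rankings. The replicate numbers were not treated as pairs. The deviations of same-numbered libraries had a mean correlation of −0.0021, 0.0298 and 0.0225 (DLD-1, then HCT-116, then HT-29), beside 0.0005, −0.0158 and −0.0115 for different numbers. Of 45 same-numbered pairs 8, 16 and 11 were over 0.1, and whether some groups shared a batch was not tested. With the replicate block 1 member was called in resistant against sensitive DLD-1 in place of 0, TNFSF10, as also without the low-count filter (1) and with the deepest library thinned (1), and the block changed no other call.

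Without the low-count filter the count was 1 in place of 0 for irradiation added to 5-FU in resistant HCT-116, for its interaction, and for labelled resistant HT-29 against resistant HCT-116, in each case TNFRSF6B, which rested on 1 resistant library above 0. Library-size scaling gave 2 members past the fold in resistant against sensitive HCT-116 with uracil, and 5 and 2 for the HT-29 interactions with 5-FU and with irradiation. It moved the median of all genes by −0.106 and −0.130 in the DLD-1 and HT-29 interactions and by −0.102 and −0.153 for sensitive HT-29 against sensitive DLD-1 and HCT-116. With read-through counts added, 0 members were past the fold in resistant against sensitive HCT-116 with uracil. DESeq2 called 3 in sensitive HCT-116 against DLD-1 and 0 in labelled resistant HT-29 against sensitive HCT-116, without TNFRSF6B. A log2 fold of 2 left 0 in each sensitive HCT-116 and HT-29 treatment comparison and in sensitive HT-29 against DLD-1, 1 in resistant against sensitive HCT-116 under each treatment, 2 in sensitive HCT-116 against DLD-1 and 3 in sensitive HT-29 against HCT-116. Leaving out replicates gave 1 to 2 for the DLD-1 interaction, resistant against sensitive HCT-116 with uracil and both treatments in sensitive HT-29, and 1 to 3 for 5-FU in sensitive HCT-116 and for sensitive HT-29 against DLD-1. The cause was not tested. Depth limits TNFSF10 in HCT-116, at 3 to 12 counts per library.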
